A study of Mus musculus with 4 samples.

Results

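The chromatin of adult basal nuclei was compared with that of adult luminal progenitor nuclei of the mouse mammary gland, side by side within each of 2 libraries. Basal nuclei were those that the authors' deposited table places in class 1 or 8, and luminal progenitor nuclei those in class 3 or 7. This gave 335 basal and 921 luminal progenitor nuclei in adult replicate 1 and 715 and 805 in adult replicate 2. Together these were 2776 of 5269 adult nuclei and of 7846 nuclei in the series. The deposited classes are numbered clusters without names, so the lineage names rest on the marker genes described below.

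The mammary epithelium has an outer basal layer, which holds the contractile myoepithelial cells that squeeze milk from the gland, and an inner luminal layer. Luminal progenitors are the hormone receptor-poor luminal cells that give rise to milk-secreting alveolar cells in pregnancy, and mature luminal cells are the hormone-sensing ones. Basal identity is known to depend on the transcription factor p63, encoded by Trp63, and the alveolar fate of progenitors on the ETS factor Elf5. An accessible stretch of DNA, one that the Tn5 transposase can cut and tag, is usually an active promoter or enhancer, so the places where 2 lineages differ in accessibility are candidate control elements of lineage genes.

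Single-nucleus ATAC-seq was used on wild-type CD1 mice, an outbred strain. Mammary epithelial cells had been sorted as EpCAM+ and Lin- at 8 weeks of age for the adult libraries and at embryonic day 18 (E18) for the fetal libraries, with 2 biological replicates at each stage and no treatment named. All groups share that sort, and the number of animals per library and their hormonal stage are not given in the sources used here. The series asks which factors regulate mammary cell states and how the lineages relate, as its title says.

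The deposited reads of all nuclei on a side were summed within each library, because the library and not the nucleus is the replicate. The sums held 1615142 and 3994925 reads for basal nuclei and 4693222 and 5142496 for luminal progenitors, with replicate 1 first here and throughout. Median reads per nucleus were 3926 and 4532 in basal nuclei and 4204 and 5232 in luminal progenitors. No barcode was shared between libraries, and no doublet caller was run on the deposited clusters. Levels are given as CPM, the reads in a feature over all TMM-scaled reads in tested features, times 1000000. The classes were drawn by the authors from these same nuclei, so the p-values below are not independent evidence that the lineages differ. They set a difference against a spread estimated with the help of all features. They therefore follow the size of the difference and the number of reads, and not only how alike the 2 libraries were. Both ends of a fragment count as reads, so reads are not independent of each other. The exact intervals given for folds treat reads as independent and leave out the spread between libraries, so they are too narrow.

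The marker genes went with the names. Over gene spans (the RefSeq gene with 2000 bases on either side), all 9 basal markers were higher in basal nuclei and all 9 luminal progenitor and 6 general luminal markers higher in luminal progenitors. The basal and general luminal markers were called in every alternative analysis, while 6 of the 9 progenitor markers were called without replicate 1, 6 without replicate 2, 6 by DESeq2 and 5 in class 8 against class 3. The 9 basal markers summed to 1619 and 1494 CPM in basal nuclei, 342 and 366 in luminal progenitors and 233 and 241 in mature luminal nuclei (class 2 or 11). The 9 progenitor markers summed to 876 and 823 CPM in luminal progenitors, 208 and 225 in basal and 214 and 232 in mature luminal nuclei. The 9 mature luminal markers summed to 1494 and 1539 CPM in mature luminal nuclei, 547 and 600 in basal and 518 and 602 in luminal progenitors. Between the compared sides, Esr1 and Tbx3 were higher in basal nuclei, Prlr and Foxa1 in luminal progenitors, and 5 were not called. Esr1 lost its call in 11, Foxa1 in 5 and Tbx3 in 4 of 14 alternative analyses. Markers of other cell types were looked at too, although the sort for EpCAM and against Lin should remove stromal, endothelial, immune and adipocyte cells. Of these, 3 of 6 tested stromal markers were higher in basal nuclei, Col1a2, Dcn and Pdgfrb, with the list at 179 and 188 CPM against 124 and 123 in luminal progenitors. None of the 6 was called without replicate 2, in class 8 against class 3 or by DESeq2, and 2 were called without replicate 1. Endothelial markers lay at 157 and 173 CPM in basal and 132 and 152 in luminal progenitor nuclei, with Tek called, a call lost in 8 of 14 alternative analyses, among them those without replicate 1 or replicate 2. Immune markers lay at 63.6 and 97.0 CPM against 86.0 and 86.4, with none of 5 called, and adipocyte markers at 50.01 and 52.6 against 27.3 and 37.7, with Lep called. Pericyte markers lay at 72.0 and 85.2 CPM against 168 and 134, with Notch3, which is also on the progenitor list, higher in luminal progenitors. The part of other cell types in the results was not tested.

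Of 16978 gene spans that averaged 10 reads or more per sum, 4302 differed at a Benjamini-Hochberg adjusted p under 0.05, a background of 25.3%. These were 2434 spans higher in basal nuclei (14.3%) and 1868 higher in luminal progenitors (11.0%), and the median log2 difference over all tested spans was 0.0016. When sums were scaled to all reads of their nuclei, the split turned to 1859 and 2881, with the median over all spans at -0.13. Without replicate 1 2094 spans were called, without replicate 2 2255 and by DESeq2 1703. The difference is always basal minus luminal progenitor on the log2 scale, by edgeR's quasi-likelihood test with the library as a block, and its SE is derived from the F statistic.

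Genes of the basal cytoskeleton and of basal identity were more accessible in basal nuclei throughout. All 8 members of that list were called, with a median log2 difference of 1.58. Krt5, a keratin of basal epithelial filaments, had 89.0 and 88.8 CPM in basal nuclei and 5.36 and 2.01 CPM in luminal progenitors. The difference was 4.62 ± 0.30 (SE, n = 2 libraries, edgeR adjusted p = 1.77e-50), and both basal values lay far above both progenitor values. Its partner Krt14 had 142 and 82.3 CPM against 17.4 and 10.8, and Krt17, a keratin of activated and basal epithelia, 165 and 150 CPM against 14.5 and 11.8. The span of Krt17 overlaps Krt42, and reads of such similar keratin genes may not be separable, since the treatment of reads with several matches is not given in the sources used here. Windows of other genes below also reach a neighbour, among them Acta2 with Stambpl1, Myh11 with Nde1, Oxtr with Cav3 and Krt8 with Krt78. The same holds for Cldn7 with Elp5 and Csf3 with Med24, so such values need not belong to the named gene alone. Trp63, the master regulator of stratified and basal epithelia, had 338 and 301 CPM against 80.7 and 91.0, a difference of 1.89 ± 0.13 (SE, n = 2, edgeR adjusted p = 1.93e-44). Within its window 6 of 10 tested distal regions were higher in basal nuclei and 1 in luminal progenitors. The smallest difference of the list was that of Egfr, the receptor of epidermal growth factor and amphiregulin, at 379 and 454 CPM against 308 and 319. Egfr was no longer called without replicate 2, with total-read scaling, in class 8 against class 3 or by DESeq2. Without replicate 2, 5 of the 8 genes were called, by DESeq2 5, and in class 8 against class 3 4.

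All 10 genes of the contractile apparatus were higher in basal nuclei, with a median difference of 1.61. Acta2, smooth muscle actin, had 136 and 152 CPM in basal nuclei and 22.2 and 20.9 in luminal progenitors, a difference of 2.75 ± 0.19 (SE, n = 2, edgeR adjusted p = 6.60e-43). Myh11, the smooth muscle myosin heavy chain, had 175 and 164 CPM against 34.8 and 39.2. Cnn1, the actin-binding calponin, had 57.6 and 49.0 CPM against 7.50 and 10.8. Oxtr, the oxytocin receptor through which milk ejection is triggered, had 159 and 179 CPM against 52.8 and 63.6. No progenitor value reached a basal value for any of these 4 genes. Over all tested gene spans, the values of the 2 sides did not overlap in 57.3%, in either direction. Actg2 and Tagln were the least stable of the list, losing their call in 7 of 13 and 5 of 14 alternative analyses.

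Basement membrane and adhesion genes were higher in basal nuclei, with the integrins near level. Of 11 members, 9 were higher in basal nuclei, none in luminal progenitors, and the median was 1.33. Col4a2, a chain of the collagen sheet beneath the epithelium, had 548 and 468 CPM against 147 and 124, and its head-to-head neighbour Col4a1 331 and 228 against 71.0 and 70.4. The windows of these neighbours overlap at their shared start. Cdh3, P-cadherin, had 224 and 170 CPM against 51.4 and 37.9, and Sparc, a matrix-binding protein, 106 and 82.3 against 14.5 and 16.3. Itga6, the laminin-binding integrin chain used to sort basal cells, differed by 0.41 ± 0.12 (SE, n = 2, edgeR adjusted p = 0.00628). That call was lost without replicate 1, without replicate 2, with total-read scaling, in class 8 against class 3 and by DESeq2. Its partners Itgb1 and Itgb4 did not pass the test, at 111 and 107 CPM against 102 and 99.3 and at 78.0 and 57.3 against 75.3 and 52.0.

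Of 12 genes of basal signalling, 9 were higher in basal nuclei, with a median of 0.86 over the list. Jag2, a Notch ligand, had 129 and 97.0 CPM against 21.7 and 24.6, a difference of 2.25 ± 0.21 (SE, n = 2, edgeR adjusted p = 7.48e-26). Wnt10a, a Wnt ligand of mammary and skin appendages, had 137 and 126 CPM against 31.9 and 31.4. Lgr5, an R-spondin receptor and Wnt target, had 177 and 169 CPM against 40.2 and 65.1. Nrg1, which encodes a ligand of ErbB receptors, had 805 and 887 CPM against 220 and 301, and 11 of 18 tested distal regions in its window were higher in basal nuclei. Tspan8, a tetraspanin, went the other way at 30.5 and 31.1 CPM against 44.5 and 49.5, a call that was lost in 7 of 14 alternative analyses. Procr at 15.3 and 14.7 CPM against 8.04 and 9.05 and Fzd8 were not called.

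On the luminal side, all 10 simple keratin and junction genes were higher in luminal progenitors, with a median of -1.85. Krt8 and Krt18, which pair in luminal filaments, had 48.3 and 63.7 CPM in basal nuclei against 241 and 193, and 18.6 and 12.5 against 85.5 and 89.5. Krt18 differed by -2.57 ± 0.25 (SE, n = 2, edgeR adjusted p = 1.64e-23). Cldn3 and Cldn7, claudins of tight junctions, had 22.0 and 17.2 CPM against 119 and 122, and 6.78 and 6.44 against 38.0 and 44.98. The narrowest gap was that of Cdh1, E-cadherin, which basal cells also use, at 220 and 181 CPM against 365 and 320. Epcam, the marker of the sort, had 57.6 and 51.9 CPM against 171 and 149, the lower level being on the basal side although all cells were sorted for its protein. In mature luminal nuclei this list summed to 1295 and 1211 CPM, close to the 1331 and 1243 CPM of luminal progenitors. That difference was not tested.

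Luminal progenitor identity genes were more mixed. Of 16 members, 10 were higher in luminal progenitors, none in basal nuclei, and 6 were not called, with a median of -0.53. Kit, a receptor tyrosine kinase of progenitors, stood at 13.6 and 15.7 CPM in basal nuclei, 174 and 181 in luminal progenitors and 6.05 and 8.48 in mature luminal nuclei. Its difference was -3.57 ± 0.21 (SE, n = 2, edgeR adjusted p = 2.38e-62), and all 6 tested distal regions in its window and its promoter were called in the same direction. Ehf and Elf5, ETS factors that lie next to each other on chromosome 2, had 41.5 and 39.0 CPM against 227 and 224, and 12.7 and 23.6 against 75.3 and 81.4. Notch1 had 72.9 and 73.0 CPM against 173 and 162. Gata3, a regulator of luminal fate, was near level at 398 and 410 CPM in basal nuclei and 346 and 370 in luminal progenitors, with none of 10 tested distal regions in its window called. Elf3, Cebpb, Lmo4, Hey1 and Tnfrsf11a did not pass the test either. Aldh1a3, Hes1, Sox10 and Cd14 passed but lost the call in 6 to 8 of 14 alternative analyses. The list had 6 calls without replicate 2, 6 without the library block and 5 by DESeq2.

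Genes of innate defence and of milk were more accessible in luminal progenitors where they differed. Of 9 tested defence genes 5 were higher there, with a median of -1.65. Lcn2, the iron-sequestering lipocalin, had 54.2 and 44.0 CPM in basal nuclei, 185 and 134 in luminal progenitors and 5.38 and 1.83 in mature luminal nuclei. Wfdc18, a small secreted protein with a WAP-type domain, had 5.09 and 5.73 CPM against 42.6 and 40.0, and Csf3, the granulocyte growth factor, 41.5 and 24.0 against 123 and 79.7. Ccl20, Cxcl1, Cxcl5 and Pigr did not pass the test. The defence list had 3 calls by DESeq2 and 3 in class 8 against class 3. Of 8 tested milk and alveolar genes 6 were higher in luminal progenitors, with a median of -1.82. Csn3, kappa-casein, had 8.48 and 8.95 CPM against 25.7 and 40.2, and Btn1a1, a protein of the milk fat membrane, 10.2 and 16.1 against 46.4 and 42.7. Lalba, a subunit of lactose synthase, had 5.09 and 0 CPM against 10.7 and 11.6, resting on 6 reads in basal and 86 reads in luminal progenitor nuclei. Csn1s2a and Stat5a were not called. The milk count rests on few reads, and 3 of the tested genes were called with either replicate left out, 3 without the library block and 2 by DESeq2.

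**Figure D1:**
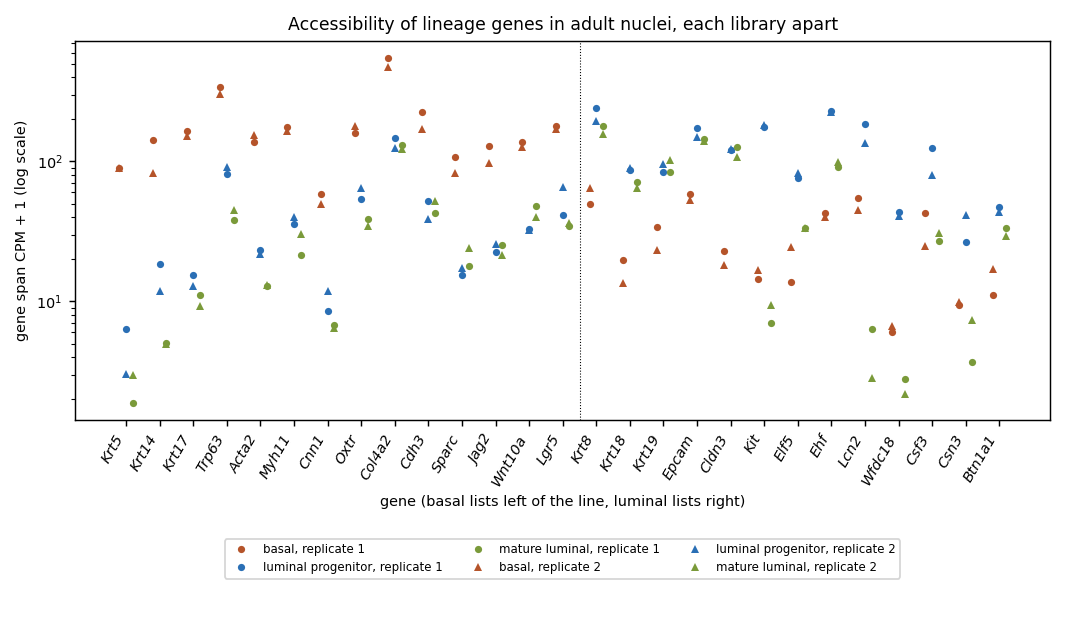
Each point is the CPM plus 1 (log scale) over a gene span in 1 library, circles for replicate 1 and triangles for replicate 2, in basal, luminal progenitor and mature luminal nuclei. Left of the dotted line the basal points lie above the other 2 kinds for every gene drawn, and right of it the luminal progenitor points lie above the basal ones, while Kit, Lcn2 and Wfdc18 are also low in mature luminal nuclei.

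Outside these lists, 6 gene spans in each direction were named as those with the largest difference in the less different library. On the basal side they were Irx4, Ackr4, Kctd4, Plaat1, Spon2 and Il17b. Irx4, an Iroquois homeobox factor, had 130 and 133 CPM in basal nuclei and 9.91 and 6.03 in luminal progenitors, a difference of 4.06 ± 0.24 (SE, n = 2, edgeR adjusted p = 5.96e-63). Ackr4, a scavenging chemokine receptor, had 69.5 and 51.9 CPM against 6.43 and 5.03, and Spon2, a secreted matrix protein, 67.8 and 41.2 against 1.07 and 4.52. Il17b, which encodes a cytokine, had 119 and 89.5 CPM against 13.7 and 12.3 and 0.448 and 2.83 in mature luminal nuclei. On the progenitor side they were Ocstamp, Slfn2, 1700014D04Rik, Sbsn, Slc28a3 and Tmprss4. Slc28a3, a nucleoside transporter, had 25.4 and 15.7 CPM against 192 and 158, a difference of -3.15 ± 0.20 (SE, n = 2, edgeR adjusted p = 1.99e-53). Sbsn, suprabasin of stratified epithelia, had 7.63 and 11.1 CPM against 89.0 and 98.0, and Slfn2, a Schlafen family protein, 1.70 and 3.58 against 52.0 and 44.2. Slfn2 and Tmprss4 were also open in mature luminal nuclei, at 39.2 and 32.1 and at 64.5 and 53.7 CPM.

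Distal regions differed in both directions in similar numbers. Of 145453 listed regions, each 1000 bases wide, 42237 averaged 10 reads or more per sum and 14291 of these were called (33.8%). Basal nuclei were higher in 7322 (17.3%) and luminal progenitors in 6969 (16.5%), and the median size of the called log2 differences was 2.68. That size cannot be set against those of promoters or gene spans, since regions with few reads are called only when they differ widely. The values of the 2 sides did not overlap in 99.8% of called regions and in 69.6% of all tested ones. Across the 5455 regions that averaged 50 reads or more per sum, the log2 ratios of the 2 libraries had a Pearson correlation of 0.83, given as a description across regions that share libraries and depth. By DESeq2 9934 regions were called, without replicate 1 3845 and without replicate 2 3098. In a fit restricted to the 5455 deeper regions and scaled on them, 935 were higher in basal nuclei and 966 in luminal progenitors, whereas with the scaling of the whole set 654 and 1366 of the same regions were called.

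**Figure D2:**
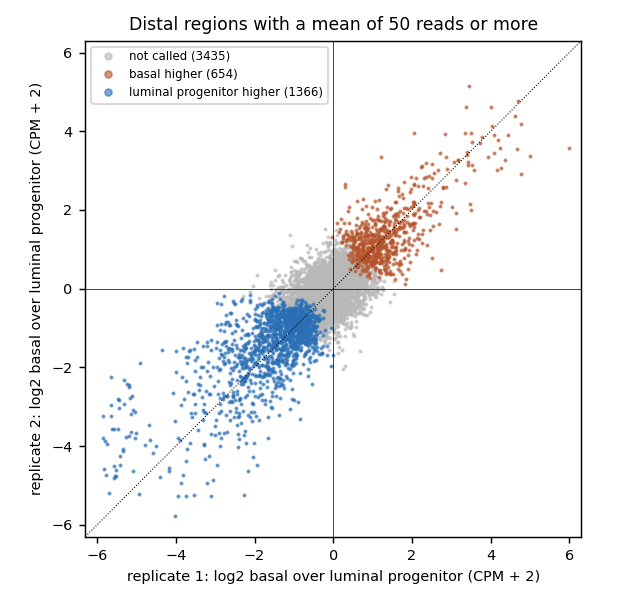
Each point is 1 of 5455 distal regions averaging 50 reads or more, placed by its log2 ratio of basal over luminal progenitor CPM (2 added to each) in replicate 1 (x axis) and replicate 2 (y axis). Called regions (654 basal higher, 1366 luminal progenitor higher) lie along the diagonal in both libraries.

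The 6 basal regions with the largest difference in the less different library lay in or near genes outside the lists except 1. A region inside Nrg1 (chr8:32218549-32219548, mm10) had 83 and 161 reads in basal and 6 and 9 in luminal progenitor nuclei, or 159 and 136 CPM against 3.86 and 5.65. Its fold over pooled reads was 30.0 (95% exact interval 17.8 to 54.4), and 39 and 73 basal nuclei had a read there against 2 and 5 progenitor nuclei. A region between genes (chr10:19497872-19498871, 93078 bases from Ifngr1) had 79 and 185 reads against 6 and 6, a fold of 40.5 (22.8 to 79.5). Others lay inside Nfatc2 (chr2:168545359-168546358) with 66 and 156 reads against 9 and 9, and inside Matn2 (chr15:34408987-34409986), the gene of a matrix protein, with 51 and 145 against 6 and 10. The remaining regions lay between genes at chr16:77743437-77744436 and chr9:106358832-106359831, with 74 and 140 reads against 6 and 6 and with 65 and 128 against 9 and 4. Mature luminal nuclei had at most 20 reads per library in any of the 6.

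On the progenitor side the leading regions were nearly empty in basal nuclei. A region inside Thada (chr17:84244130-84245129) had 0 and 1 read in basal and 158 and 164 reads in luminal progenitor nuclei, a pooled ratio of 175 with an interval of 31.1 to 6923. Regions inside Itpr1 (chr6:108412613-108413612), the gene of a calcium channel of the endoplasmic reticulum, and inside Basp1 (chr15:25376421-25377420) each had 0 and 1 basal reads, against 145 and 125 and against 166 and 118. A region inside Atic (chr1:71575657-71576656) had no basal read and 92 and 115 progenitor reads, at least 37.4-fold higher when 3 reads over both libraries are taken as the floor. The same held inside Gtf3c5 (chr2:28566260-28567259), with 143 and 84 progenitor reads and at least 41.1-fold. A region between genes on chromosome 13 (chr13:5614405-5615404, 246085 bases from Klf6) had 0 and 2 reads against 141 and 156. The other luminal lineage divided these regions. Mature luminal nuclei had 217 and 241 reads at Basp1 and 138 and 133 at Itpr1, but 11 and 8 at Gtf3c5 and 4 and 15 at the region near Klf6.

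Of 8350 gene spans that hold a tested distal region, 2310 held a region higher in basal nuclei, 2682 one higher in luminal progenitors and 729 both. By number of called regions the leading basal genes were Aopep with 18 of 35 tested, Slit3 with 15 of 25 and Foxp1 with 14 of 32, the last 2 with 1 and 2 regions called the other way. Slit3 encodes a guidance ligand and Foxp1 a forkhead repressor. Nav2 had 13 of 56, with 2 called the other way, and Ptpn14, a phosphatase that acts on the YAP pathway, 13 of 18. On the progenitor side Thsd4 had 11 of 16, Arhgap26 11 of 44 with 2 called the other way, Clmn 10 of 16 and Gse1 10 of 27 with 1 called the other way. Cgnl1, the gene of the junction protein paracingulin, had 9 of 14, Irak2 9 of 11, Hivep3 9 of 29 with 3 the other way, Rora 9 of 18 with 2 and Ldlrad4 9 of 23 with 1. The span of Thsd4 as a whole differed by -1.75, while that of Arhgap26 differed by -0.14 and was not called (edgeR adjusted p = 0.273). These genes were picked by that count after the values were seen, long genes hold more regions, and the shares stand beside 17.3% and 16.5% of all tested regions.

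Promoter regions were called in both directions as well. Of 13756 promoter regions with enough reads, 1524 were called (11.1%), 848 higher in basal nuclei (6.16%) and 676 higher in luminal progenitors (4.91%), with a median size of 1.71. Luminal progenitor nuclei had 25.5% and 23.7% of their reads in promoter regions and basal nuclei 22.6% and 21.6%, and this share moved with the side in both libraries. Its part in the counts was not tested, but with total-read scaling the split of promoter calls turned to 638 and 1155. By DESeq2 446 promoters were called, 318 of them higher in basal nuclei, without replicate 1 289, without replicate 2 249 and in class 8 against class 3 118.

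The leading basal promoter regions lay in Kcnq5, a potassium channel, Cyp2j9, Ptchd4, Adgrf4, an adhesion receptor, Il17b and Nlrp10. Promoter regions are named here by the gene they overlap or lie beside, whether or not its start is in the region. The nearest listed start to the Nlrp10 region was that of Eif3f, 6003 bases away. The Kcnq5 promoter (chr1:21960852-21961851) had 141 and 190 CPM in basal nuclei and 19.8 and 12.6 in luminal progenitors, a difference of 3.36 ± 0.33 (SE, n = 2, edgeR adjusted p = 1.82e-21). The Il17b promoter had 183 and 121 CPM against 14.7 and 18.5, and no read in mature luminal nuclei of either library. The leading progenitor promoters lay in Serinc3, Lbp, Arhgef38, 1700014D04Rik and Il17c and beside Slfn2. The Arhgef38 promoter (chr3:133234470-133235469) had 16.9 and 15.6 CPM in basal nuclei and 325 and 290 in luminal progenitors, a difference of -4.23 ± 0.28 (SE, n = 2, edgeR adjusted p = 1.65e-45). At Lbp, whose protein binds bacterial lipopolysaccharide, and at Serinc3, basal nuclei had no read, while luminal progenitors had 124 and 77 reads and 112 and 104 reads, at least 34.0-fold and 36.5-fold higher against 3 reads over both libraries. Il17c, a cytokine of epithelial defence, had 2 and 2 basal reads against 86 and 113.

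Promoter sequences of lineage genes are shown because their accessibility divides the lineages, with 4 of the words searched marked. They are RefSeq promoters (GRCm38.p6), 250 bases before to 50 bases after the start, written 5′ to 3′ on the gene's strand, and were picked after the values were seen from list genes whose sequence lies wholly in a tested promoter region. Capitals mark AGGAAG (an ETS core), CACCTG (an E-box bound by SNAI and E proteins), GGAATG (a TEAD word) and TGANTCA (the AP-1 word), searched on both strands. Krt14 (chr11:100205981-100206280, minus strand) and Acta2 (chr19:34255324-34255623, minus strand) are basal genes. Kit (chr5:75574737-75575036) and Wfdc18 (chr11:83708754-83709053), both on the plus strand, are luminal progenitor genes. Cldn3 (chr5:134985964-134986263, plus strand) is a general luminal gene, its span having 119 and 122 CPM in luminal progenitors and 125 and 106 in mature luminal nuclei.
Krt14: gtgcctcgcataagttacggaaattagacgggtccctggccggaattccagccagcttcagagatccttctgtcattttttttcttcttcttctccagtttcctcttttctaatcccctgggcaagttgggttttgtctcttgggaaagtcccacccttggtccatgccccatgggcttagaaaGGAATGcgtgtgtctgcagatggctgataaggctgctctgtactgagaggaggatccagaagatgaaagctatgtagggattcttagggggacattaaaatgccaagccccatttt
Acta2: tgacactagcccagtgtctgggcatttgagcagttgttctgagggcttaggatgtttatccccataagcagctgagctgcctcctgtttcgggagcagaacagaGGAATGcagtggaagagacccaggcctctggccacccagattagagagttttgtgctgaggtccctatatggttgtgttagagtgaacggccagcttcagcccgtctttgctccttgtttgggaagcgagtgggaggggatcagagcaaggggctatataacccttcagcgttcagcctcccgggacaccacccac
Kit: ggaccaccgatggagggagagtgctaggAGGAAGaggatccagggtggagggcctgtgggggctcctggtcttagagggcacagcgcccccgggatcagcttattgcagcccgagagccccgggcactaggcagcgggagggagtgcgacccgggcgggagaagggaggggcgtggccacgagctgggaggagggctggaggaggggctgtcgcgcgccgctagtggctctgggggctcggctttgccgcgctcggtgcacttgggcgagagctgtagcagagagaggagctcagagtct
Cldn3: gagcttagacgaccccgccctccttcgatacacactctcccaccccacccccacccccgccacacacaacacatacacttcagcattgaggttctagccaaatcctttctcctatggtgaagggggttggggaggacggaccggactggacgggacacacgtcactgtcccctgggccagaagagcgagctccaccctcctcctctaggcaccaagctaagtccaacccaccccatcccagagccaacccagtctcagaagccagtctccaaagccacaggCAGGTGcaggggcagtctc
Wfdc18: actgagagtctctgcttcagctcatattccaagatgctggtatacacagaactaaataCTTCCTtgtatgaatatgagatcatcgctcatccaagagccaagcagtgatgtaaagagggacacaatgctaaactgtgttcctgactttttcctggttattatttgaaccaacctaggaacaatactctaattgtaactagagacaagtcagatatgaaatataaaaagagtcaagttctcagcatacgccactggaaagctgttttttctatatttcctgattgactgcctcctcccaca

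The promoter regions that hold these sequences were called in the direction of their genes. That of Krt14 had 115 and 51.5 CPM in basal nuclei and 20.7 and 11.8 in luminal progenitors, and that of Acta2 110 and 139 against 27.6 and 10.1. That of Kit had 5.63 and 21.6 CPM against 112 and 124, that of Cldn3 36.6 and 16.8 against 254 and 267, and that of Wfdc18 11.3 and 12.0 against 98.3 and 105. The Krt14 and Acta2 sequences each hold GGAATG, Kit and Wfdc18 hold AGGAAG or its complement, and Cldn3 holds CACCTG as its complement 32 bases after the start. A match is a description of letters and not a bound site.

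Over all tested promoter regions, 7667 of 13756 held a RefSeq promoter, among them 371 of 848 higher in basal nuclei and 274 of 676 higher in luminal progenitors. CACCTG stood in 31.8% of the 274 progenitor promoters, 17.8% of the 371 basal promoters and 18.6% of all 7667. AGGAAG stood in 40.9%, 31.0% and 31.0%, and TGTGGT, a RUNX word, in 16.1%, 10.8% and 11.2%. The AP-1 word TGANTCA stood in 8.39% and 8.36% of the called sets against 4.89% of all. GGAATG stood in 11.7% of progenitor promoters, 14.8% of basal promoters and 11.1% of all. Of the p53 family words, ACATGT stood in 1.35% of basal, 1.82% of progenitor and 1.62% of all promoters and CATGTC in 3.50%, 4.38% and 5.31%. The grainyhead-like word AACCGG stood in 7.01% of basal, 11.3% of progenitor and 12.1% of all promoters. In all 16 words were searched. CGGAAGT, the ETS word of CpG-rich promoters, was at 9.85% and 4.31% in the called sets and at 14.1% in all tested promoters, and both called sets held fewer CpG dinucleotides, a median of 17.5 and 19 against 22 in 300 bases. Over all 32851 RefSeq promoters CACCTG stood in 20.2%, AGGAAG in 35.4%, TGTGGT in 16.8%, TGANTCA in 7.81% and GGAATG in 14.7%. These shares were not tested, and distal regions could not be searched because their sequence was not used here.

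Motif scores rank the factors whose binding letters mark the accessible regions of each side. The authors' deposited chromVAR score gives, per nucleus, how far the accessibility of all regions with a motif deviates from a background, so it has no unit and cannot tell family members with the same motif apart. Of 427 motif columns 294 differed by limma with the library as a block (68.9%), 123 higher in basal nuclei (28.8%) and 171 higher in luminal progenitors (40.0%). Among columns with distinct values, 2 were more than 1 higher in basal nuclei and 28 more than 1 higher in luminal progenitors.

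The p53 family motifs of Trp63 and Trp73 were the 2 columns that differed by more than 1 on the basal side. Trp63 scored 3.48 and 3.33 in basal nuclei and -0.98 and -0.93 in luminal progenitors, a difference of 4.36 ± 0.06 (SE, n = 2, limma adjusted p = 9.45e-06). In single nuclei its score was above 0 in 99.1% and 97.6% of basal and in 15.3% and 18.4% of luminal progenitor nuclei. Trp53, whose motif is related, differed by -0.18 and lost its call in 3 of 8 alternative analyses. Below Trp63 and Trp73, the largest basal differences were those of Gata2 at 0.87 ± 0.06, Lmx1b at 0.85 ± 0.04 and Egr3 at 0.84 ± 0.08 (SE, n = 2). Egr2 followed at 0.82 ± 0.06, the AP-1 member Fos at 0.82 ± 0.05 and Smarcc1 at 0.80 ± 0.06. From the fixed list, Egr1 was higher in basal nuclei by 0.77 ± 0.05 and Tcf7l2, an effector of Wnt signalling, by 0.76 ± 0.04. All 4 Egr, both Gata and all 9 Fos, Jun and Bach columns were higher in basal nuclei, but Jun lost its call in 5 of 8 alternative analyses, among them that without replicate 2. Fos scored 0.38 and 0.13 in basal nuclei, -0.36 and -0.76 in luminal progenitors and 2.45 and 3.13 in mature luminal nuclei. Fos scores varied widely within a side, with an SD over nuclei of 1.80 and 1.76 in basal and 2.05 and 2.36 in luminal progenitor nuclei. For Trp63 the SD was 2.07 and 2.04 in basal and 1.10 and 1.15 in luminal progenitor nuclei. Of the 2 Tead columns Tead4 was higher in basal nuclei by 0.39 ± 0.08 and Tead3, at 0.55 and 0.49 against 0.29 and 0.54, was not called.

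ETS and forkhead columns and the single grainyhead column, Grhl1, scored higher in luminal progenitors than in basal nuclei. Elf5 scored -0.96 and -0.92 in basal nuclei and 1.79 and 1.60 in luminal progenitors, a difference of -2.63 ± 0.07 (SE, n = 2, limma adjusted p = 3.54e-05), and mature luminal nuclei stood at -0.63 and -0.78. All 6 Elf and Ehf columns and all 7 Ets and Etv columns were higher in luminal progenitors, with medians of -2.22 and -0.48. Grhl1, an organiser of epithelial junctions, differed by -2.28 ± 0.10, at 0.49 and 0.66 in progenitors and 0.42 and 0.55 in mature luminal nuclei. The E-box columns Id3 and Id4, which hold the same values, differed by -1.60 ± 0.04, and Snai2, a repressor with an E-box motif, by -1.42 ± 0.04. These E-box scores were higher still in mature luminal nuclei, with Id3 at 0.81 and 0.84 against 0.37 and 0.37 in progenitors and Snai2 at 0.72 and 0.75 against 0.34 and 0.33. At its own gene Snai2 was the more accessible in basal nuclei, at 54.2 and 73.4 CPM against 26.5 and 26.4. All 23 Fox columns, which hold 16 distinct sets of values, were higher in luminal progenitors, between -1.51 and -0.89, although Foxa1 scored below 0 on both sides, at -2.13 and -2.30 in basal and -0.98 and -1.13 in progenitor nuclei against 3.82 and 4.36 in mature luminal nuclei. Foxi1 likewise stood at 0.05 and -0.02 in progenitors and 1.74 and 1.84 in mature luminal nuclei. Nfkb1 and Rela, the NF-kappaB factors of inflammatory signalling, differed by -1.12 ± 0.10 and -0.98 ± 0.06, with Nfkb1 at 0.49 and 0.09 in basal nuclei and 1.41 and 1.41 in luminal progenitors.

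Several factors with known roles in the gland did not pass the test. None of 6 Stat columns was called, with Stat5a at 0.21 and 0.05 in basal nuclei and 0.27 and 0.25 in luminal progenitors. The columns Nfia and Nfib, which hold the same values, Cebpa and Cebpb, Rbpj, Hes1 and Pgr were not called either. The other NFI columns went in opposite directions, with Nfix at -0.80 and Nfic at 0.26, both called. The Gata3 column was higher in basal nuclei, with 0.25 and 0.22 in basal nuclei and -0.39 and -0.45 in luminal progenitors, a difference of 0.66 ± 0.04 (SE, n = 2, limma adjusted p = 0.00025). Runx1, which holds the same values as Runx3, was higher in basal nuclei by 0.50 ± 0.06, while Runx2 was not called. Of the fixed list of 50 motifs 46 had a column, and 15 were higher on each side.

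**Figure D3:**
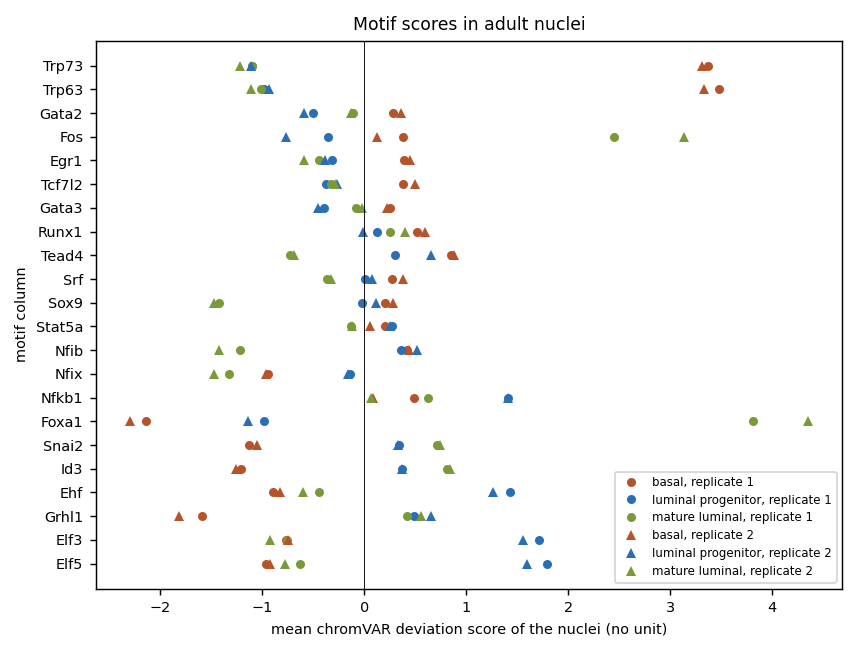
Mean deviation score (x axis, no unit) of 22 motif columns in basal, luminal progenitor and mature luminal nuclei, circles for replicate 1 and triangles for replicate 2. The Trp63 and Trp73 points of basal nuclei lie above 3 and those of the other nuclei below 0, the Elf5, Elf3 and Ehf points of luminal progenitors lie above 1 and those of the other nuclei below 0, and Foxa1 sets mature luminal nuclei apart.

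Each side is made of 2 clusters, 1 with more reads in promoters (class 1 and class 7) and 1 with fewer (class 8 and class 3). Class 1 held 60.0% and 58.5% of basal and class 7 73.3% and 57.4% of progenitor nuclei. Class 1 against class 7 gave 7273 called distal regions of 24007 tested, and class 8 against class 3 gave 3167 of 17259. Of 6081 regions called over both clusters and tested in both pairs, 6037 (99.3%) had the same sign in both pairs. These regions were chosen on the pooled reads of the same clusters, a choice that favours agreement, and how much of it follows from the choice was not tested. Of 9489 regions not called 5988 (63.1%) had the same sign. Among regions tested in both pairs, 2224 were called in each pair by itself, and 2224 of these had the same direction. For regions called over both clusters and higher in basal nuclei, the median difference was 2.20 in class 1 against 7 and 1.59 in class 8 against 3. For those higher in luminal progenitors it was -2.00 and -1.75. A test of the difference between the pairs called 2 of 20579 regions (0.00972%) by edgeR, with 1731 at an unadjusted p under 0.05, and 0 by DESeq2. Trp63 scores differed by 4.10 between class 1 and class 7 and by 4.74 between class 8 and class 3, and Elf5 scores by -2.61 and -2.68.

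**Figure D4:**
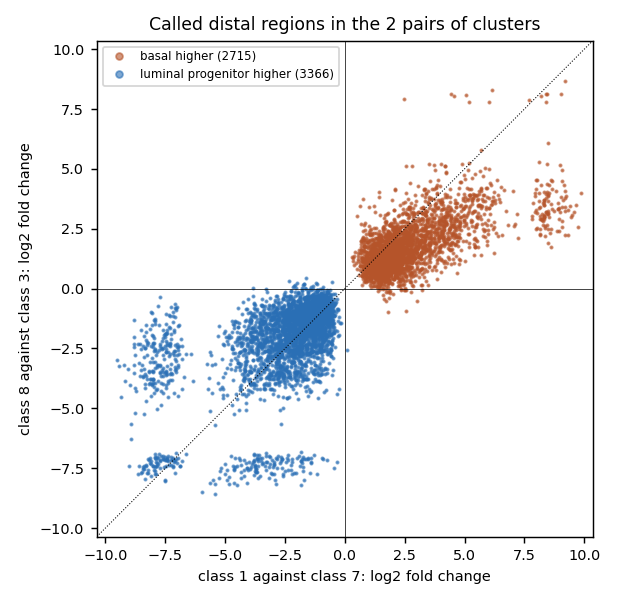
Log2 difference of 6081 called distal regions in class 1 against class 7 (x axis) and in class 8 against class 3 (y axis), 2715 higher in basal nuclei and 3366 higher in luminal progenitors over both clusters. The regions were chosen on the pooled reads of both pairs, a choice that favours points in the lower left and upper right fields to an extent not tested. The separate bands far out are regions without a read in 1 cluster, whose fitted value is no measure of size.

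Mature luminal nuclei, the other adult luminal lineage, lay on the progenitor side at most basal regions and were split at progenitor regions. At the 7322 distal regions higher in basal nuclei, the median level was 36.3 and 35.5 CPM in basal, 5.15 and 5.65 in luminal progenitor and 2.77 and 4.23 in mature luminal nuclei. The mature luminal level was nearer to the progenitor level at 83.6% of them. At the 6969 regions higher in luminal progenitors the medians were 3.82 and 4.22 CPM in basal, 30.2 and 29.5 in progenitor and 17.99 and 19.0 in mature luminal nuclei. There the mature luminal level was nearer to the progenitor level at 59.9% and nearer to the basal level at 40.1%, and at 33.0% it was above both. Since the sets were chosen on basal and progenitor values, these shares are descriptions.

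The fetal libraries, which took no part in calling these regions, were divided in the same direction. Fetal class 4 (132 and 338 nuclei) was compared with fetal class 9 (385 and 652 nuclei), clusters picked with earlier results on their basal and luminal features known, so their general direction is not independent of that choice. Of 37955 distal regions tested, 2139 were called (5.64%), 1152 higher in class 4 (3.04%) and 987 higher in class 9 (2.60%). Among 4610 regions higher in adult basal nuclei and tested in the fetus, 82.4% were higher in class 4, 752 were called so and 6 called the other way. Among 4356 regions higher in adult luminal progenitors, 87.1% were higher in class 9, 637 were called so and 2 the other way. Of 19531 regions not called in the adult, 40.9% were higher in class 4, with 136 and 278 calls. Regions called at both stages numbered 1397, which is 15.6% of the adult and 77.1% of the fetal calls among regions tested at both, and 1389 of them had the same direction. By DESeq2 the fetal comparison gave 472 calls, and without replicate 1 816, of which 271 were higher in class 4 and 545 in class 9, and without replicate 2 511, with 214 and 297.

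The fetal levels stood between the adult extremes. The regions were chosen for a large adult difference, so a smaller difference in groups that took no part in the choice is in part built in. At the basal-higher regions the medians were 23.4 and 24.1 CPM in class 4 and 8.91 and 11.0 in class 9, and at the progenitor-higher regions 7.80 and 8.88 in class 4 and 17.8 and 17.5 in class 9. Fetal and mature luminal CPM use the reads in the tested regions without a TMM factor, and differences between stages were not tested. The Nrg1 region had 144 and 174 CPM in class 4 against 19.1 and 42.7 in class 9 (edgeR adjusted p = 3.41e-09), and the Thada region 7.80 and 10.2 against 90.3 and 81.6 (adjusted p = 5.63e-07). The Itpr1 region, by contrast, had 0 and 0 CPM in class 4 and 5.09 and 2.74 in class 9, against 93.3 and 78.4 in adult progenitors. For genes, Krt5 had 28.6 and 36.8 CPM in class 4 and 11.9 and 11.3 in class 9, and Kit 44.3 and 38.6 in class 4 and 47.3 and 73.4 in class 9. The p63 motif scored 2.89 and 2.81 in class 4 and -0.78 and -0.71 in class 9, and Elf5 -0.96 and -1.03 against 0.19 and 0.31.

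**Figure D5:**
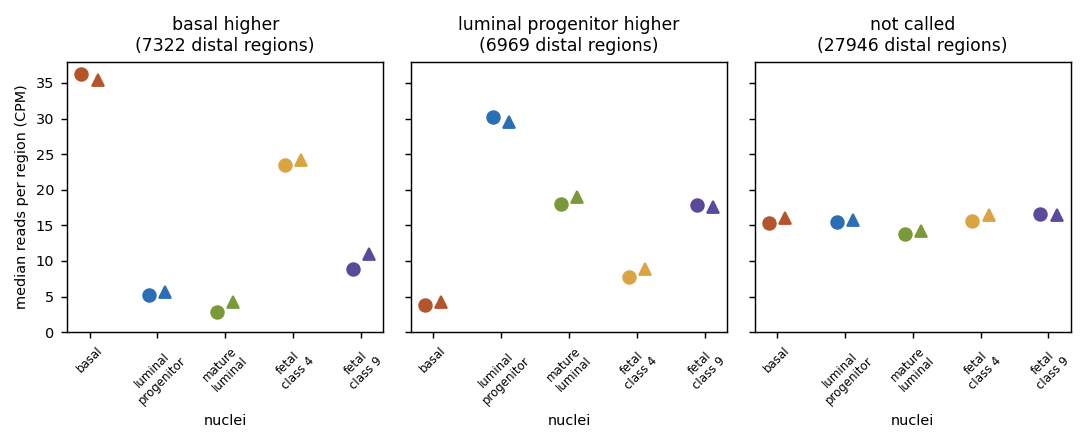
Median CPM per distal region (y axis) in adult basal, luminal progenitor and mature luminal nuclei and in fetal class 4 and class 9, circles for replicate 1 and triangles for replicate 2, for regions higher in adult basal nuclei (left), higher in adult luminal progenitors (middle) and not called (right). Fetal class 4 lies above class 9 in the left panel (23.4 and 24.1 against 8.91 and 11.0) and below it in the middle one, and all points of the right panel lie between 13.8 and 16.5 CPM. The sets were chosen on adult basal and luminal progenitor reads, which favours a wide gap between those 2 kinds of nuclei.

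At a score of at least 0.25, 747 of 7322 basal-higher distal regions (10.2%), 693 of 6969 progenitor-higher ones (9.94%) and 928 of 27946 not called (3.32%) were linked to a promoter region. At a score of at least 0.1 the shares were 35.7%, 43.4% and 23.4%. The authors' deposited Cicero scores rate how far the accessibility of 2 regions goes together over all nuclei of the series, fetal and mature luminal ones included. The scores are not shares of nuclei, and they are not independent of the lineages. They gave 880 pairs with a score of at least 0.25 between a basal-higher region and a tested promoter. In 718 of these pairs (81.6%, 95% Wilson interval 78.9 to 84.0) the promoter was also higher in basal nuclei, and in 1 it was higher in luminal progenitors. For progenitor-higher regions 435 of 961 pairs (45.3%, 42.1 to 48.4) joined a promoter higher in luminal progenitors and 5 one higher in basal nuclei. Regions and promoters recur among pairs, while the intervals treat pairs as independent, so they do not measure the uncertainty of these shares. At a score of at least 0.1 the matching shares were 50.4% (basal) and 22.8% (progenitor). Regions not called were paired with 139 basal-higher and 161 progenitor-higher promoters in 1084 pairs. In the 4 basal gene lists 20 of 41 genes had a linked distal region, and in the 4 luminal lists 21 of 46. Summed over genes, the basal lists had 94 linked regions, 80 higher in basal nuclei and 1 in luminal progenitors. The luminal lists had 90, with 58 higher in luminal progenitors and 2 in basal nuclei. A region linked to 2 genes counts for each, and the neighbours Col4a1 and Col4a2 each had 12, with 10 higher in basal nuclei. Krt14 had 7 linked regions and Lamb3, a laminin chain, 11, all of them higher in basal nuclei. Kit had 13, of which 11 were higher in luminal progenitors, Cldn3 9 of 11 and Krt8 7 of 7. By contrast, Cebpb had 11 and Sox10 6, each with 1 higher on either side, and Lcn2 had 5, with 1 higher in luminal progenitors.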

How the data were processed

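The deposited read files list 1 position per read with the barcode of its nucleus, aligned to mm10, and the submitters' processing notes name Bowtie2, MACS2 and bedtools without roles. Read shifting, duplicate removal, doublet removal, motif collection and clustering settings are not given in the sources used here. The deposited table holds the authors' chromVAR score per nucleus and motif, the count of reads per nucleus and the class, and a further table the authors' Cicero co-accessibility score, both named so per the file names in the labels. Per the labels' protocols, 2000 nuclei went into each of 32 tagmentation wells per adult replicate and 16 per fetal replicate before 20 were sorted per well of 768.

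From these files, reads overlapping a region by at least 1 base were counted and summed per library and side. Features with a mean of at least 10 reads over the 4 sums were tested with edgeR 4.0.16 (TMM scaling, quasi-likelihood, library as a block) in R 4.3.3, and motif means with limma 3.58.1, with Benjamini-Hochberg adjustment over all features tested. The SE of a log2 difference is its size divided by the root of F. Both sides of a library come from 1 pool of nuclei, so libraries pair the sums by construction, and the 2 adult libraries are labelled biological replicates. DESeq2 1.42.0, other scalings, filters, nuclei, clusters and leaving out each replicate were alternatives. The code was tested on simulated data. Counting used Python 3.11.15 (pandas 2.3.3, numpy 2.4.6), intervals scipy 1.17.1 and plots matplotlib 3.10.9. Gene spans and promoter sequences came from RefSeq (GRCm38.p6), and 58 of 87 list genes had a promoter sequence. Named features were the 6 in each direction with the largest smaller within-library ratio (2 added to CPM) among called ones with a mean of at least 50 reads and no overlap, motifs the 8 largest each way, and list genes 2 to 5 examples per list. The comparison, gene lists and motifs were chosen with earlier results of these data known. The 19 fetal nuclei in classes 1, 3, 7 and 8 were left out, and the Cicero gene score table was not used because its columns name no sample.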

Additional observations from a re-analysis of the deposited data

Results flagged for a closer look

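In 2 of 20579 distal regions (0.00972%) the difference between basal and luminal progenitor nuclei itself differed between the clusters with more and with fewer reads in promoters, by edgeR's test of that difference. A region inside Hunk, the gene of a kinase (chr16:90468016-90469015), had 47 and 87 reads in class 1 and none in class 7, against 20 and 44 in class 8 and 8 and 10 in class 3. The fitted difference between the pairs was 6.84 ± 1.21 on the log2 scale (SE, n = 2, edgeR adjusted p = 0.0189), but its size depends on the empty class 7. A region between genes (chr6:117071460-117072459, 96076 bases from Cxcl12) had 59 and 107 reads in class 1, 0 and 2 in class 7, 15 and 43 in class 8 and 13 and 9 in class 3, a difference of 5.05 ± 0.90 (edgeR adjusted p = 0.0189). Both regions were higher in the basal cluster of each pair. DESeq2 called neither, and groups of 2 libraries are too small for a check of single outlying libraries.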

How the results depend on the processing

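None of the called items that were recomputed one by one (89 gene spans of the lists and the naming rule, 12 distal regions, 12 promoter regions and 40 motifs) changed its direction. The balance of calls did: with total-read scaling the basal and progenitor counts were 638 and 1155 for promoters and 1859 and 2881 for gene spans. For distal regions they were 7140 and 7523, with DESeq2 size factors 6955 and 7447, with no filter 7316 and 8239, with the shared spread 6810 and 7404 and without replicate 1 1843 and 2002. The fetal class 4 and class 9 counts were 271 and 545 without replicate 1 and 214 and 297 without replicate 2. In class 8 against class 3, 43 of 6764 called distal regions, 21 of 1098 promoters and 29 of 4185 gene spans took the other sign, as did 5 of 294 motifs. In class 1 against class 7, 35 of 4174 gene spans and 1 motif did, and 16 of 4199 gene spans did without flanks. Several counts of calls moved by more than 1.5 times. Of distal regions, 7273 were called in class 1 against class 7, 3167 in class 8 against class 3, 1901 with a mean of at least 50 reads and 8941 with nuclei counted in place of reads, each over fewer tested regions. Promoter calls came to 446 by DESeq2, 833 in class 1 against class 7, 118 in class 8 against class 3, 531 with at least 50 reads and 823 in nuclei with at least 4000 reads. Gene span calls came to 1703 by DESeq2 and 1671 in class 8 against class 3. Fetal calls came to 472 by DESeq2. For the difference between the cluster pairs DESeq2 gave 0 calls and a mean of at least 50 reads gave 7 of 1025. Of these 7, 1 difference was positive, as in the 2 flagged regions, and 6 were negative. Neither flagged region was among the 1025. Leaving out 1 replicate gave 3098 to 3845 distal, 249 to 289 promoter, 2094 to 2255 gene span, 231 to 233 motif and 511 to 816 fetal calls. A lone library has no spread of its own, so the spread came from the shared fit, which in full has 5 groups over 10 sums. With 1 replicate left out, only the groups of the other stage keep 2 libraries, so the spread rests on that stage. The lone library was assumed to vary likewise, which was not tested. The median absolute difference between the cluster pairs was 0.687, and 0.752 to 0.982 with 1 replicate left out, with no test. Co-accessible pairs that matched made up 50.4% (basal) and 22.8% (progenitor) at a score of at least 0.1, and 97.8% and 61.9% at 0.5. Except for the DESeq2 test, where 10 of 12 each were called, all 12 named distal and 12 named promoter regions were called in every alternative; the exceptions were the regions in Atic and Gtf3c5 and the promoters in Serinc3 and Lbp. Of the list and named gene spans called, 26 of 88 were not called by DESeq2, 28 of 88 in class 8 against class 3, 17 of 89 without replicate 1 and 22 of 89 without replicate 2.

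Without the replicate block that pairs the sides of a library, 16166 distal regions, 1675 promoters, 3110 gene spans, 300 motifs, 2 regions for the cluster pairs and 2015 fetal regions were called, and 12 of 89 gene spans lost their call. The search for motif words in distal regions was not run. Depth limits the distal regions most, since the median tested region had a mean of 19.5 reads per sum.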
